A study of Mus musculus with 2 samples.

Results

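The genes described here are the collagens, the laminins and 6 further matrix proteins (Fn1, Tnc, Sparc, Nid1, Nid2 and Hspg2). They were taken by symbol, from names with the form of a collagen chain or a laminin chain, plus those 6. Described here are 60 genes of 33696, of which 44 were collagens and 10 were laminins. Their levels were compared between groups of cells called A and B within 1 single-cell library of KPCY 6419c5, a mouse line of pancreatic ductal adenocarcinoma. KPCY lines come from mice in which a Cre driven by the Pdx1 promoter switches on tumour-driving mutations and a yellow fluorescent label. Clones 76 and 84 of the line, each grown from 1 sorted cell after transfection with an adenine base editor built on Cas12a, had been edited for 19 days and went into the library in equal numbers. All cells of both groups share that line, editor and time. The other sample of the series, a pool of 5 clones, was not analysed here.

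Cells were not labelled by clone, so A and B rest on expression. A cell counted as A where 5 genes (Pde10a, Plcb1, Galnt18, Arhgap15 and Ceacam1) gave at least 2 unique molecular identifiers (UMIs, counts of captured RNA molecules) and at least 3 times the UMIs of the B genes. The B genes, used in the same way, were S100a7a, Rgs20, Hs6st2, Ccbe1, Ctse and Mal. None of these 11 genes is a matrix gene of the list. Of 21361 cells that passed the cell filter, 7816 (36.6%) were A, 8936 (41.8%) were B and 4609 (21.6%) were neither. A cells had a median of 4699.5 UMIs and a mitochondrial share of 3.19%, and B cells had 5440.5 UMIs and 1.89%. Summed over cells, A held 40272805 UMIs and B held 52771426. Levels are given as CPM, the UMIs of a gene for every 1000000 UMIs of the group, with exact Poisson 95% intervals where an interval is shown. There was no replicate of A or B, so no test was made, and the intervals cover counting error only. A UMI marks 1 captured 3′ end, so levels were not divided by transcript length. How well each 3′ end is captured differs between genes, so levels of different genes are set side by side only loosely.

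The cells were checked against marker lists. The epithelial list of 8 genes stood at 2739 CPM in A and 7584 CPM in B, led by Krt18 (1083 and 3019 CPM). Epcam, of the same list, went the other way, at 31.8 CPM in A and 3.16 CPM in B, while the ductal factor Sox9 stood at 1.91 and 5.68 CPM and the junction gene Cldn4 at 0.199 and 0.379 CPM. The fibroblast list of 8 genes stood at 145 CPM in A and 6.77 CPM in B, nearly all from the smooth muscle actin gene Acta2 (144 and 5.89 CPM). Of that list, Dcn, Lum and Thy1 had 0 UMIs in both groups, and the other 4 lay at 0.621 CPM or less. The pericyte list had 0 UMIs in A and 4 in B, the immune list 3.45 and 0.947 CPM, and the Schwann list 0.894 and 0.606 CPM. The endothelial list (33.5 and 8.57 CPM) was led by Egfl7 at 32.6 and 7.75 CPM, while Pecam1 had 26 UMIs in A and 10 in B, Cdh5 had 12 and 32, Tie1 had 0 and 1, and Kdr and Emcn had none.

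The extracellular matrix is the protein network outside cells. Epithelial cells rest on one form of it, the basement membrane, in which laminins and type IV collagen make separate sheets that nidogens and perlecan link together. A laminin is a trimer of 1 alpha, 1 beta and 1 gamma chain, and a collagen molecule is a trimer of collagen chains wound in a triple helix. In pancreatic ductal adenocarcinoma, fibroblasts are known as the main source of fibrillar collagens, and tumour cells also make matrix themselves.

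Matrix genes of the list took a small share of all RNA, 829 CPM in A (820 to 838) and 972 CPM in B (964 to 981), but they split sharply by gene. A cells were marked by fibronectin (Fn1) and tenascin C (Tnc). B cells were marked by the laminin chain Lamb3 and by the collagens Col4a3, Col4a4, Col11a1, Col27a1 and Col18a1. The chains common to most basement membranes, Col4a1, Col4a2, Lama5, Lamb1 and Lamc1, lay within 2-fold of each other in A and B. Of the 60 genes, 18 reached 10 CPM in at least 1 group. Of those 18, 2 were at least 2-fold higher in A (11.1%), where 10.3% of all 8800 genes at that level were. The count in the other direction was 6 of 18 (33.3%) at least 2-fold higher in B, against 7.26% of all genes. Lamb3, Col4a3, Col4a4, Col11a1 and Col27a1 reached 10 CPM in B alone and Tnc in A alone, so these genes passed the minimum through the group where they were high. Of the 8 matrix genes with at least 50 CPM, 2 (Fn1 and Tnc) were higher in A, against 7.6% of all genes at that level, and 1 (Lamb3) was higher in B, against 6.68%. These 3 genes reached 50 CPM only in the group where they were high, so nothing is read from that count. The median log2 ratio of A over B was -0.44 over the 18 genes and 0.17 over all 8800. Over the 3908 genes with at least 50 CPM it was 0.11, and with ratios taken relative to that shift none of the 18 genes changed direction.

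**Figure D1:**
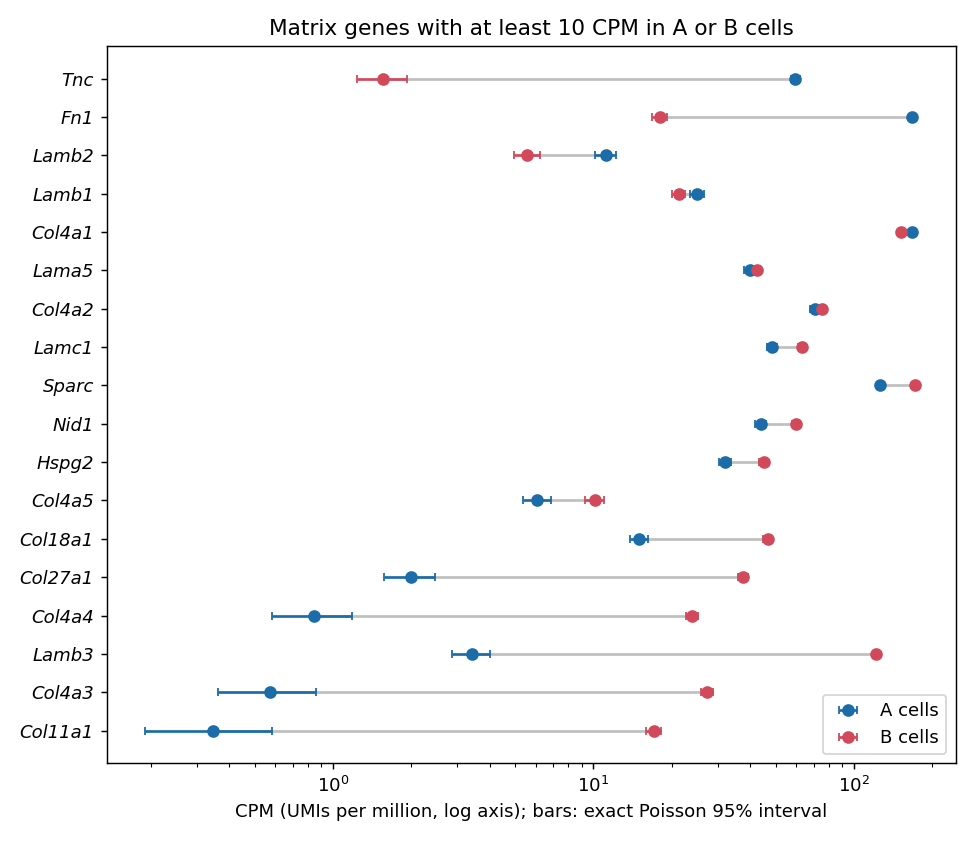
Level in CPM (log axis) of the 18 matrix genes with at least 10 CPM in A (blue) or B (red) cells, ordered by their ratio, with exact Poisson 95% intervals. Tnc and Fn1 lie far to the right in A, while Col11a1, Col4a3, Lamb3, Col4a4 and Col27a1 lie far to the right in B, and the genes in the middle rows nearly coincide.

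The regions just before the annotated starts are shown for 5 of these genes, to set beside their levels: Tnc, high in A, then Lamb3, Col27a1 and Col11a1, high in B, and Lama5, alike in both. Each is the 250 bases before the first listed RefSeq start on build GRCm38.p6, which is not the build of the counts (GRCm39). Of the 18 genes, 15 matched a RefSeq window, and Fn1, Lamc1 and Col4a3 did not. Positions are chr4:64047016-64047265 on the minus strand for Tnc, chr1:193301744-193301993 on the plus strand for Lamb3, chr4:63215162-63215411 on the plus strand for Col27a1, chr3:114030290-114030539 on the plus strand for Col11a1 and chr2:180225860-180226109 on the minus strand for Lama5. Capitals mark matches on either strand to any of 4 motifs: that of AP-1 is TGANTCA, that of TEAD is GGAATG, that of the GC box is GGGCGG and the last is CCAAT.
Tnc: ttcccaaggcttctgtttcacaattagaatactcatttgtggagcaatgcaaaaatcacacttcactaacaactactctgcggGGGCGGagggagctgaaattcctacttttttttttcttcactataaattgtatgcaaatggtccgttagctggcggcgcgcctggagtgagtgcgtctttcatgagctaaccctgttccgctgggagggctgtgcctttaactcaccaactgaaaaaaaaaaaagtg
Lamb3: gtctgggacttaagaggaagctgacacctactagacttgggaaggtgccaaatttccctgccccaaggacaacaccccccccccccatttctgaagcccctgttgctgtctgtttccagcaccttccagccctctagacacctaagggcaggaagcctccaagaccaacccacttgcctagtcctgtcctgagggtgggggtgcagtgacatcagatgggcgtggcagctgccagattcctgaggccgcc
Col27a1: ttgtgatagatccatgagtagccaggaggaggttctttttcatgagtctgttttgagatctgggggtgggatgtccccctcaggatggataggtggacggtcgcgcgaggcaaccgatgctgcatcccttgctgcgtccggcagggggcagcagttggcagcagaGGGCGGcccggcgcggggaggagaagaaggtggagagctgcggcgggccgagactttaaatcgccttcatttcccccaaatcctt
Col11a1: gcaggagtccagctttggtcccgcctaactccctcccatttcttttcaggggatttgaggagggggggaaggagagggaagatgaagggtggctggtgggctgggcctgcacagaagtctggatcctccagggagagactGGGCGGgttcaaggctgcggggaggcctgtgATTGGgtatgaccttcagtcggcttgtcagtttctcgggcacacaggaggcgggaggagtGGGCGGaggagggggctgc
Lama5: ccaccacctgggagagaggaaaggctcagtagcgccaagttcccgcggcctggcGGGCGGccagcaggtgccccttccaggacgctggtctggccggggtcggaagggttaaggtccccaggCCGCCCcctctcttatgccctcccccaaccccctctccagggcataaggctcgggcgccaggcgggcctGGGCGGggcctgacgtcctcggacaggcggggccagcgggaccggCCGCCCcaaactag
The GC box was found 4 times before Lama5, 2 times before Col11a1, 1 time before Tnc and 1 time before Col27a1. Col11a1 alone of the 5 matched CCAAT, with 1 match. None of the 5 windows held TGANTCA or GGAATG, and the Lamb3 window held no match to any of the 4. Lamb3 and Tnc each have a second listed start, whose window is not printed. Of its 250 bases, 149 for Lamb3 and 79 for Tnc overlap an annotated exon. The Lamb3 one held 1 match to GGAATG, and the Tnc one held the same GGGCGG as the printed window. Over the 32851 RefSeq windows of that length, TGANTCA was present in 6.75%, GGAATG in 12.6%, GGGCGG in 32.7% and CCAAT in 33.8%. A match describes letters only, and no factor was measured at these places.

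Among the laminin chains described, Lamb3 differed most between A and B. Lamb3 (ENSMUSG00000026639), the beta chain of the laminin that anchors epithelia at hemidesmosomes, stood at 3.40 CPM in A (2.86 to 4.02) and 122 CPM in B (119 to 125), 35.8-fold higher in B. It was thus low in A and among the most abundant of the 60 genes in B. Its partner Lama3, the alpha chain of that trimer, was scarce in both groups but went the same way, with 11 UMIs in A (0.273 CPM) and 181 in B (3.43 CPM), 12.6-fold higher in B.

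The widely used chains were close. Lama5, the main alpha chain of adult epithelial basement membranes, had 39.7 CPM in A (37.8 to 41.7) and 42.4 CPM in B (40.6 to 44.1). Lamb1 had 25.1 CPM in A and 21.2 CPM in B, and Lamc1 had 48.3 and 63.0 CPM. Lamb2, the beta chain known from vessels, nerve and kidney, leaned to A, at 11.1 CPM against 5.57 CPM. Its log2 ratio of 1.00 (0.78 to 1.21) fell just short of 2-fold, and 4 of the alternatives in the closing part put it past, at log2 ratios of 1.00 to 1.32. Lamc3 had 2 UMIs in A and 41 in B, Lama2 had 6 and 14, Lama4 had 3 and 2, and Lama1 had none.

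Read as a mixture, the beta UMIs of A cells came mostly from Lamb1 (63.3%) and Lamb2 (28.1%), with 8.59% from Lamb3 (exact Clopper-Pearson 95% interval 7.26 to 10.1%). In B cells Lamb3 gave 81.9% (81.1 to 82.8%) of the beta UMIs and Lamb1 gave 14.3%. The alpha UMIs were 98.8% Lama5 in A and 91.9% in B, with Lama3 at 0.679% and 7.44%. Summed, the 10 laminins stood at 128 CPM in A and 258 CPM in B, 2.02-fold higher in B. Without Lamb3 the sums were 125 and 137 CPM, 1.10-fold higher in B.

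**Figure D2:**
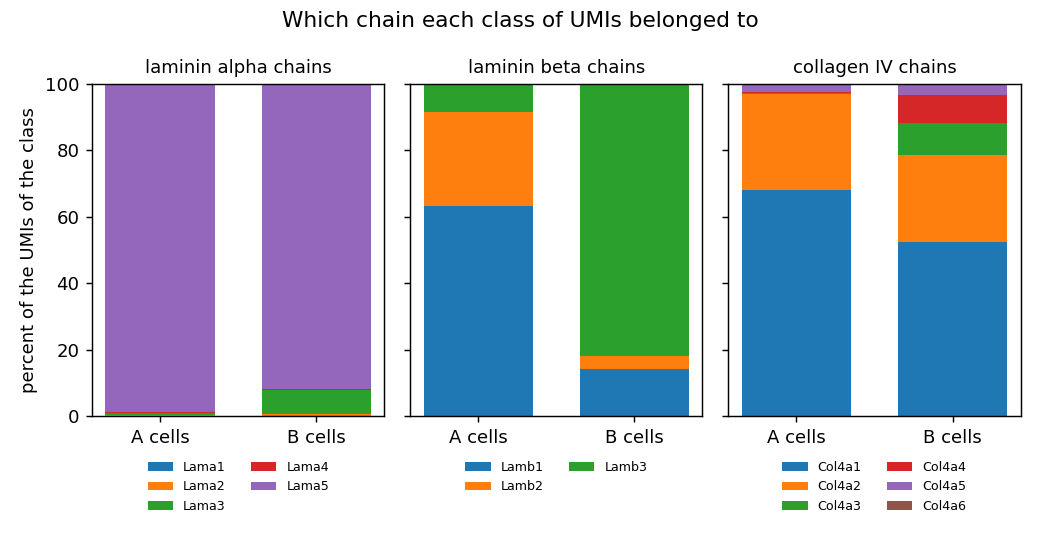
Percent of the UMIs of each class (laminin alpha chains, laminin beta chains and collagen IV chains) that belonged to each chain, in A and in B cells. Lamb1 fills most of the beta bar in A and Lamb3 (81.9%) most of it in B, while Lama5 fills the alpha bar in both.

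Type IV collagen, the network collagen of basement membranes, comes from 3 pairs of neighbouring genes: Col4a1 with Col4a2, Col4a3 with Col4a4, and Col4a5 with Col4a6. In the RefSeq annotation (GRCm38.p6) no protein-coding gene lies between the genes of any of these pairs. Col4a1 had 166 CPM in A (162 to 170) and 151 CPM in B (148 to 155), and Col4a2 had 70.6 CPM (68.0 to 73.3) and 75.4 CPM (73.1 to 77.8). This pair, which makes the common form of the network, was the most abundant among the collagens in both groups and differed little between them.

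The second pair differed greatly. Col4a3 (ENSMUSG00000079465) had 0.571 CPM in A, from 23 UMIs, and 27.3 CPM in B (26.0 to 28.8), 47.9-fold higher in B. Col4a4 (ENSMUSG00000067158) had 0.844 CPM in A, from 34 UMIs, and 23.9 CPM in B (22.6 to 25.3), 28.3-fold higher in B. Both are best known from the basement membranes of the kidney glomerulus and the lung. Col4a5, the third chain of their trimer, had 6.08 CPM in A and 10.1 CPM in B, while Col4a6 had 1 UMI in A and 4 in B. Of the collagen IV UMIs, Col4a3 and Col4a4 gave 0.234% and 0.345% in A and 9.49% and 8.29% in B.

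Of the other basement membrane proteins, Nid1, Hspg2 and Col18a1 were higher in B and Nid2 was not. Nid1, a nidogen that bridges laminin and type IV collagen, had 43.9 CPM in A (41.9 to 46.0) and 59.7 CPM in B (57.6 to 61.8). Hspg2, the core protein of perlecan, had 32.0 and 45.0 CPM. Col18a1 (ENSMUSG00000001435), a basement membrane collagen whose end fragment is endostatin, had 14.9 CPM in A (13.8 to 16.2) and 46.6 CPM in B (44.8 to 48.5), 3.12-fold higher in B. Nid2, the second nidogen, had 3.85 CPM in A (3.27 to 4.50) and 2.94 CPM in B (2.49 to 3.44), from 155 UMIs in each group. Nid1 and Hspg2 lay 1.36-fold and 1.41-fold higher in B, short of 2-fold.

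The glycoproteins went in opposite directions. Fn1 (ENSMUSG00000026193), fibronectin, which cells bind through integrins, had 167 CPM in A (163 to 171) and 17.9 CPM in B (16.8 to 19.1), 9.31-fold higher in A. Tnc (ENSMUSG00000028364), tenascin C, a matrix protein of wounds and tumour stroma, had 59.5 CPM in A (57.1 to 61.9) and 1.55 CPM in B (1.24 to 1.93), 38.3-fold higher in A. Sparc is a secreted collagen-binding protein. Of the 60 genes it was the most abundant in B, at 171 CPM (167 to 174) against 126 CPM in A (123 to 130). After each cell was thinned to 3000 UMIs, 33.8% of A cells and 4.23% of B cells held an Fn1 UMI, and 14.5% and 0.374% held a Tnc UMI. Without thinning these shares were 45.3% and 8.66% for Fn1, and 21.5% and 0.828% for Tnc. By the same measure 29.4% of B cells and 1.01% of A cells held a Lamb3 UMI (46.7% and 1.61% unthinned). No cells known to lack these genes were at hand, so a background share from free RNA was not measured, and its part in the lower shares was not tested. Thinning left out 410 A cells and 109 B cells.

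The smooth muscle actin gene Acta2 moved with Fn1 and Tnc, at 144 CPM in A and 5.89 CPM in B. The rest of the fibroblast list lay at 0.621 CPM or less in both groups. Some of the large fold values moved by over 1.5 times when doublets, barcodes that may hold 2 cells, were taken out. With barcodes marked by Scrublet removed, the log2 ratio of A over B moved from -5.16 to -5.76 for Lamb3, from -5.58 to -6.61 for Col4a3, from -5.61 to -6.40 for Col11a1 and from 5.26 to 5.91 for Tnc. In these 4 the ratio moved away from 0. For Col4a4 it went from -4.82 to -5.18, within its counting interval. The strict cell filter moved the ratios the other way, to -4.84 for Lamb3, -5.05 for Col4a3, -5.10 for Col11a1 and 4.97 for Tnc. With A and B cells taken by a stricter rule it was -7.40 for Col4a3 and -8.42 for Col11a1, and with cells thinned to 3000 UMIs it was -6.20 and -6.54.

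Among the remaining collagens, the higher ones in B were of several types. Col27a1 (ENSMUSG00000045672), a fibrillar collagen known from cartilage, had 1.99 CPM in A (1.58 to 2.47) and 37.4 CPM in B (35.8 to 39.1), 18.8-fold higher in B. Col11a1 (ENSMUSG00000027966), a minor fibrillar chain often noted in tumour stroma, had 14 UMIs in A (0.348 CPM) and 899 in B (17.0 CPM), 49.0-fold higher in B. Summed, the collagens stood at 269 CPM in A and 416 CPM in B, 1.55-fold higher in B. That sum was mostly Col4a1 and Col4a2, and without them it was 32.0 and 189 CPM, 5.93-fold higher in B.

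A further 10 genes of the list stayed under 10 CPM in both groups but had at least 40 UMIs in A and B together, a minimum chosen after the values were seen. Of these, 8 were at least 2-fold higher in B and 1 in A, the tenth being Nid2. Over all 4735 genes within the same limits, 17.5% were at least 2-fold higher in B and 22.8% in A. Several of the 8 passed the UMI minimum through B, where they were high, so nothing is read from the count. Col7a1, the anchoring fibril collagen that attaches to laminin beneath epithelia, had 1.19 and 5.99 CPM. The network collagen Col8a1 had 1.69 and 6.92 CPM, and the fibrillar chain Col5a1 had 0.348 and 4.72 CPM. Col6a1 and Col6a2, neighbouring genes of the beaded filament collagen, had 6 and 1 UMIs in A and 184 and 89 in B. Lama3 and Lamc3 are given above, and Col24a1 had 0.670 and 2.01 CPM. The gene higher in A was Col3a1, a major fibrillar collagen of stroma, with 51 UMIs in A and 2 in B, a log2 ratio of 5.06 (3.14 to 8.15).

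Main fibrillar collagens of fibroblasts were close to absent. Col1a1 had 9 UMIs in A and 11 in B, and Col1a2 had none. In all, 22 genes of the list had 1 to 39 UMIs over A and B, at 0.372 CPM or less. Col22a1 was among them, with 13 UMIs in A and 0 in B, which is at least 5.68-fold higher in A with the B count set at 3 UMIs. A count of 0 was read as up to 3 UMIs in a group, or 0.0745 CPM in A and 0.0568 CPM in B. There were 10 genes with 0 UMIs in A and B: Col1a2, Col2a1, Col5a3, Col6a4, Col6a5, Col9a1, Col9a2, Col12a1, Col25a1 and Lama1. Over all 21361 cells, Col6a5 had 3 UMIs and the other 9 had none.

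**Figure D3:**
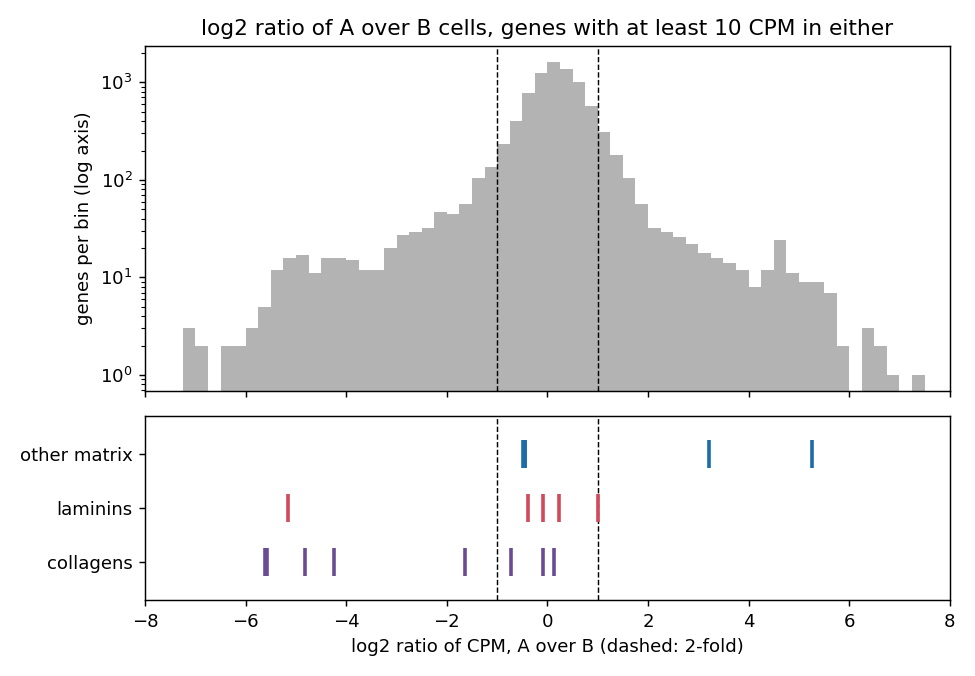
Upper panel: number of genes per bin (log axis) by log2 ratio of CPM of A over B, for the 8800 genes with at least 10 CPM in either. Lower panel: the 18 matrix genes as ticks by family, where 5 collagens and 1 laminin lie left of the 2-fold line (dashed) and Fn1 and Tnc right of it.

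Enzymes that modify and assemble collagen lay mostly within 2-fold. Of a list of 30, 29 were in the file and 16 reached 10 CPM, of which 13 lay within 2-fold, 1 was at least 2-fold higher in A (6.25%) and 2 were at least 2-fold higher in B (12.5%). These shares lie near the 10.3% and 7.26% of all genes at that level, and the 3 genes reached 10 CPM only in the group where they were higher. The most abundant were close: Ppib, a folding isomerase, had 284 and 317 CPM, P4hb, a subunit of prolyl hydroxylase, had 274 and 306 CPM, Colgalt1, which adds galactose to hydroxylysine, had 141 and 116 CPM, and P3h4 had 76.6 and 95.1 CPM. The exceptions were Tll1, a procollagen-trimming protease (13.0 and 4.23 CPM), its relative Bmp1 (3.48 and 10.1 CPM) and the prolyl 3-hydroxylase P3h2 (6.73 and 24.3 CPM), which is known to act on type IV collagen. The related proteases Tll1 and Bmp1 therefore differed in opposite directions.

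Further matrix and matricellular proteins differed between A and B gene by gene. Of a list of 30 genes, 14 reached 10 CPM, 1 was at least 2-fold higher in A, 8 were at least 2-fold higher in B and 5 lay within 2-fold. The shares were 7.14% in A and 57.1% in B, against 10.3% and 7.26% of all genes. Of the 8, Fbln1 (6.88 and 26.1 CPM), Efemp1, Agrn and Ltbp1 reached 10 CPM in B alone, so nothing is read from the count. The gene higher in A was Thbs1, thrombospondin, at 101 and 17.7 CPM. In B the more abundant ones were Fbln2, a fibulin that binds laminin and nidogen (77.5 and 428 CPM), and Ccn2, a matricellular growth factor modulator (78.8 and 219 CPM). Efemp1 (3.28 and 47.8 CPM), another fibulin, and Ltbp1 (3.48 and 39.6 CPM), which holds latent TGF-beta in the matrix, were 14.6-fold and 11.4-fold higher in B. Agrn, the basement membrane proteoglycan agrin, had 6.51 and 25.8 CPM. Spp1, osteopontin, was the most abundant gene of the list and lay within 2-fold, at 1052 and 751 CPM, as did Ccn1 at 184 and 219 CPM.

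Receptors for these proteins were also described from a list of 22. Of these, 15 reached 10 CPM, of which 10 lay within 2-fold, 1 (6.67%) was higher in A and 4 (26.7%) were higher in B, against 10.3% and 7.26% of all genes. Of the 4, Itgb4 and Itgb6 reached 10 CPM in B alone, so nothing is read from the count. Itga6 and Itgb4, which pair as the hemidesmosome receptor for the laminin that holds Lamb3, had 81.8 and 177 CPM and 2.46 and 52.9 CPM, the latter 21.5-fold higher in B. Itgb6, the beta subunit of a receptor for fibronectin and latent TGF-beta, had 1.09 and 44.2 CPM, 40.5-fold higher in B. The collagen receptors Itga1 and Itga2 went opposite ways, Itga1 at 108 and 28.0 CPM and Itga2 at 56.1 and 153 CPM. Itga5, the classic fibronectin receptor subunit, had 10.2 and 15.3 CPM, against the direction of Fn1. Itgb1, the common beta subunit, had 570 and 532 CPM. Sdc4 (164 and 168 CPM) and Cd44 (103 and 118 CPM) also lay within 2-fold.

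Within A and within B, the matrix genes were described in narrower ranges of cells, set by genes outside the list. These are ranges of a score, not cell types. Among A cells, 2121 formed the Acta2 range, with at least 2 UMIs of Acta2, Ptchd4 and Cnn1 and at least 3 times the UMIs of Epcam, S100g and Tm4sf20, and 1252 formed the Epcam range by the reverse rule. Their medians were 5189 and 4528.5 UMIs per cell. Fn1 had 250 CPM in the Acta2 range (241 to 259) and 76.7 CPM in the Epcam range (69.9 to 83.9), 3.26-fold apart. Tnc had 84.8 CPM (79.7 to 90.1) and 42.5 CPM (37.5 to 48.0), 1.99-fold apart. Both ranges lay above B for both genes, so neither Fn1 nor Tnc was confined to the Acta2 range.

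Lamb1 had 31.8 CPM in the Acta2 range (28.7 to 35.1) and 14.0 CPM in the Epcam range (11.2 to 17.3), 2.27-fold apart, and Sparc had 145 and 97.8 CPM. Lamc1 (42.6 and 57.5 CPM) and Lama5 (34.4 and 47.5 CPM) leaned the other way, so the chains of the common laminin trimer did not go together. Of 12 matrix genes at 10 CPM or more in either range, 2 (Fn1 and Lamb1) were at least 2-fold higher in the Acta2 range, where 0.819% of all genes were, and 0 in the Epcam range, where 3.62% were. Col4a1 (183 and 171 CPM), Nid1 (45.8 and 45.7 CPM) and Lamb3 (2.64 and 2.58 CPM) were level across the ranges.

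Among B cells, 541 formed the Krt14 range, by UMIs of Krt14 and Sprr1a over those of Areg, Btc and Cftr, and 4714 formed the Areg range by the reverse rule. Their medians were 6097 and 5530.5 UMIs per cell. Here 18 matrix genes reached 10 CPM, and 5 of them (Col4a3, Col4a4, Col4a5, Col7a1 and Col8a1) were at least 2-fold higher in the Krt14 range, where 1.66% of all genes were. The count in the Areg range was 0, where 0.316% of all genes were. Of the 5, only Col4a3 and Col4a4 reached 10 CPM in both ranges. Col4a5, Col7a1 (10.1 and 5.07 CPM) and Col8a1 (13.0 and 5.14 CPM) passed the minimum through the Krt14 range alone, where they were high, so nothing is read from the count. Col4a3 had 41.4 CPM (34.9 to 48.8) against 19.6 CPM (18.0 to 21.3), Col4a4 had 39.7 against 17.0 CPM, and Col4a5 had 20.6 CPM (16.1 to 26.0) against 7.46 CPM (6.49 to 8.54). The 3 chains of this collagen IV trimer were thus each higher in the Krt14 range, while Col4a1 lay closer, at 183 against 140.0 CPM. That direction was not particular to the trimer. Fn1 had 26.1 against 13.7 CPM, Col11a1 had 26.1 against 14.6 CPM and Col27a1 had 50.7 against 33.9 CPM. The median log2 ratio of the Krt14 over the Areg range was 0.44 over the 18 genes and 0.001 over all genes at that level. Col18a1 (41.4 and 45.9 CPM) and Lamb1 (18.3 and 21.0 CPM) leaned the other way. Lamb3 (151 and 114 CPM) was 1.33-fold apart, and Lama5 (41.7 and 42.4 CPM) and Lamc1 (62.6 and 61.3 CPM) were level.

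**Figure D4:**
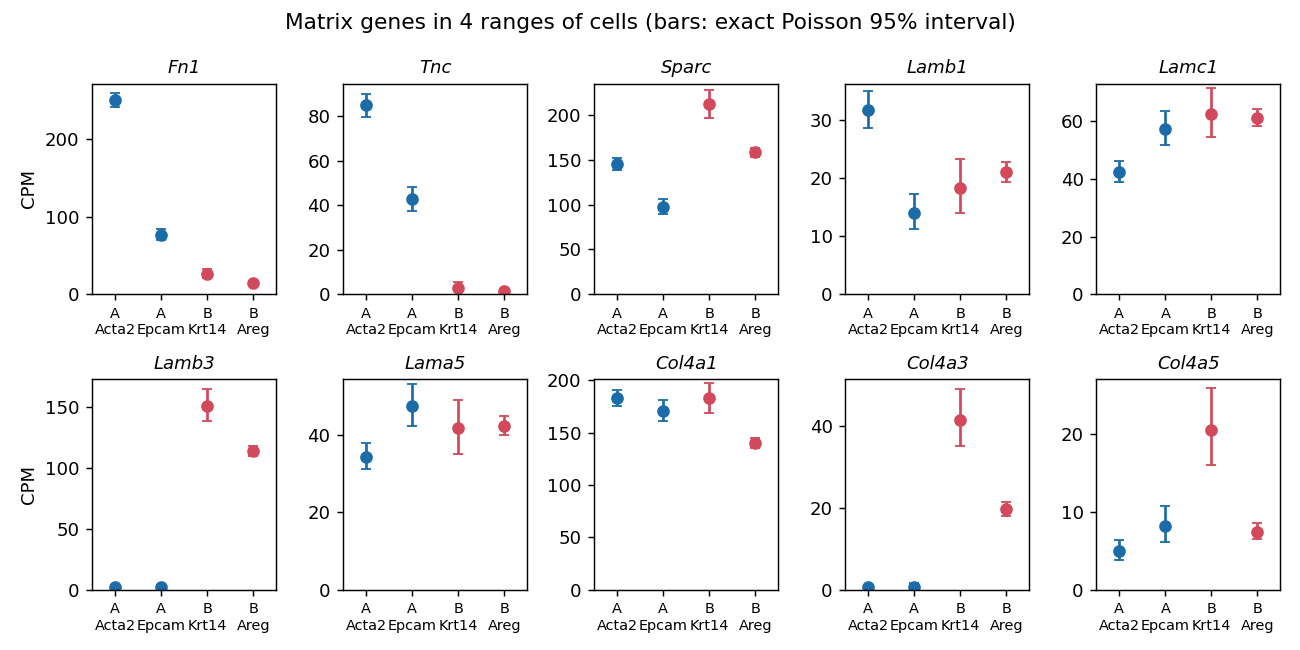
Level in CPM of 10 matrix genes in the Acta2 and Epcam ranges of A cells (blue) and the Krt14 and Areg ranges of B cells (red), with exact Poisson 95% intervals. Fn1, Tnc and Lamb1 are highest in the Acta2 range, Lamb3 is high in both ranges of B, and Col4a3 and Col4a5 are highest in the Krt14 range.

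Cells of 1 group were also ordered by a single matrix gene. After thinning to 3000 UMIs, 4904 A cells held 0 Fn1 UMIs, 1696 held 1 and 806 held 2 or more. In that order Tnc stood at 48.7 CPM (45.2 to 52.4), 70.2 CPM (63.1 to 77.8) and 113 CPM (100 to 128). Sparc stood at 109, 136 and 178 CPM, and Thbs1 at 82.9, 118 and 167 CPM, so these 3 genes were higher with each step of Fn1. So were Fbln2 at 58.1, 82.2 and 115.0 CPM, Lamb1 at 22.2, 27.3 and 34.3 CPM, Col4a1 at 156, 177 and 199 CPM and Col4a2 at 67.6, 74.7 and 95.1 CPM. Acta2 did the same, at 79.9, 182 and 444 CPM, and Epcam went down, at 40.2, 17.5 and 12.8 CPM. Nid1 (44.5, 42.1 and 50.04 CPM) and Lamc1 (47.6, 49.3 and 49.6 CPM) were level. The median depth before thinning was 4730.5, 4898 and 5053 UMIs, and the median mitochondrial share 3.19%, 3.13% and 3.14%.

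**Figure D5:**
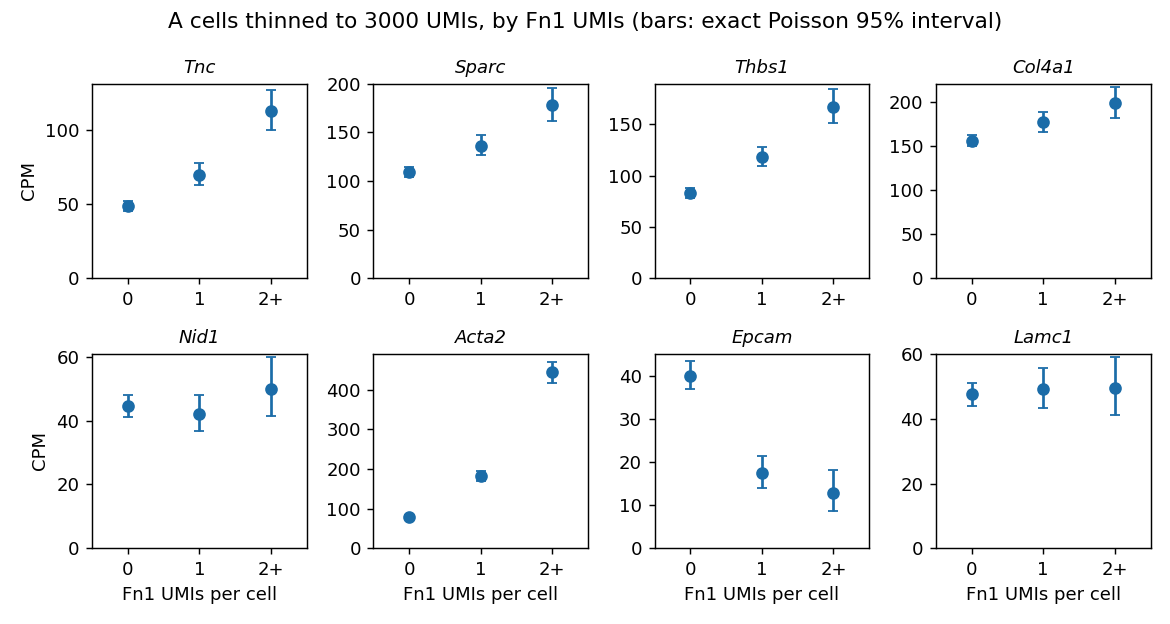
Level in CPM of 8 genes in A cells thinned to 3000 UMIs, for cells with 0, 1 and 2 or more (2+) Fn1 UMIs, with exact Poisson 95% intervals. Tnc, Sparc, Thbs1, Col4a1 and Acta2 are higher with each step, Epcam is lower, and Nid1 and Lamc1 are level.

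In B cells the same was done with Lamb3: 6229 cells held 0 UMIs, 2099 held 1 and 499 held 2 or more. Sparc stood at 160, 180 and 216 CPM, and Col4a1 at 148, 162 and 173 CPM. Fbln2 stood at 400.3, 456 and 523 CPM. Col4a3 stood at 24.5, 28.3 and 43.4 CPM, Col18a1 at 45.2, 48.6 and 57.4 CPM, Col11a1 at 15.4, 19.5 and 22.0 CPM and Thbs1 at 15.2, 21.9 and 23.4 CPM. For Sparc, Fbln2 and Col4a3 the intervals at 0 and at 2 or more Lamb3 UMIs did not overlap. For Col4a1, Col18a1, Col11a1 and Thbs1 they did. Lamb1 (20.7, 23.2 and 23.4 CPM) and Nid1 (60.3, 61.6 and 53.4 CPM) overlapped too. Not all collagens high in B rose with each step of Lamb3. Col4a4, the pair of Col4a3, stood at 21.7, 27.2 and 22.0 CPM, and Col27a1 at 38.2, 41.8 and 34.7 CPM.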

How the data were processed

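Gene expression was measured by droplet single-cell RNA sequencing in 1 pooled library of 2 mouse tumour cell clones. The deposited matrix holds raw UMI counts, as whole numbers, for each gene and barcode. It was made, per the file headers and the submitters' processing notes, with Cell Ranger 8.0.1, on build GRCm39 per the notes. The annotation version and any cell filter of the authors are not given in the sources used here. The library had 22178 barcodes and 116505698 UMIs.

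Barcodes with under 2000 UMIs, with under 1000 genes or with a mitochondrial share above 15% were removed (817 barcodes). A and B cells were taken by the marker rule in the report. Doublets were not removed in the main values. Scrublet, in scanpy 1.11.5 at an expected rate of 0.08, marked 787 of 21361 barcodes (3.68%), of which 148 were A cells and 207 were B cells. Counts were summed over the cells of a group and scaled to CPM. Intervals are exact Poisson for levels, exact Clopper-Pearson for shares and exact conditional binomial for ratios, at 95%, and were computed with scipy 1.17.1. A floor of 3 UMIs stood for a count of 0. Thinning drew 3000 UMIs per cell without replacement. Sums, calls and thinning were tested on simulated data.

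The genes named are those with at least 10 CPM in A or B, a family's or trimer's other members, and the most abundant or most different genes of the other lists. A gene that the symbol rule also finds is not reported here and stands in no count or sum of matrix genes. The members and lists were chosen with earlier results of these data known. Alternatives were removal of doublets, strict and loose cell filters, a stricter marker rule, thinning, another scaling and a minimum of 50 CPM.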

Additional observations from a re-analysis of the deposited data

Results flagged for a closer look

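Matrix UMIs were also counted in barcodes that the comparison of A and B leaves out. Of 464 barcodes with at least 2 marker UMIs of both sets, 92 or 19.8% (exact Clopper-Pearson 95% interval 16.3 to 23.8%) held a UMI of Fn1 or Tnc together with one of Lamb3. The share was 0.960% in A cells and 5.14% in B cells. The median depth was 8490.5 UMIs in these barcodes, against 4699.5 in A and 5440.5 in B, and Scrublet marked 319 of them (68.8%) as doublets. These barcodes were chosen for holding marker UMIs of both sets, which by itself favours UMIs of both kinds, so the share is a description and no finding. The part of depth and doublets in it was not tested.

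Of 3966 cells with under 2 marker UMIs of either set, 1.44% (1.09 to 1.86%) held both kinds of UMI, at a median of 4111.5 UMIs. In these cells Fn1 had 124 CPM and Lamb3 had 34.8 CPM, both between the levels of A and B.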

How the results depend on the processing

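The number of matrix genes at least 2-fold higher in A was 2, and 2 or 3 under all 7 alternatives, the third being Lamb2. The number at least 2-fold higher in B was 6 under the alternatives other than a minimum of 50 CPM. With that minimum only 8 genes were left, of which 1 was higher in B (Lamb3). Summed collagens had a log2 ratio of A over B of -0.63. It was -0.74 when centred on the median gene, and -2.57 without Col4a1 and Col4a2. Summed laminins had -1.01. They had -1.12 when centred, -1.07 with at least 5 marker UMIs and a 10-fold marker ratio, and -0.13 without Lamb3. Leaving out named genes was an alternative chosen after the values were seen. The other collagen and laminin values stayed within their counting interval. Of 108 values of the 18 named genes, 78 stayed within their counting interval, 30 moved and 0 changed sign, and only Lamb2 crossed 2-fold. The strict filter (5000 UMIs, 2000 genes and 8% mitochondrial UMIs) kept 3310 A cells and 5535 B cells. No paired analysis was possible because there is 1 library. The spread between cultures is not measured by any of these, and genes under about 1 CPM rest on few UMIs.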

Other observations

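Few or no UMIs were counted for several genes that usually accompany matrix production. Serpinh1, the collagen chaperone HSP47, had 7 UMIs in A (0.174 CPM, 0.0699 to 0.358) and 32 in B (0.606 CPM, 0.415 to 0.856), in cells where Col4a1 stood at 166 and 151 CPM. Lox, which crosslinks collagen and elastin, the procollagen protease Adamts2, and the stromal genes Postn, Vtn and Fmod had 0 UMIs in both groups. Relatives of Lox were seen, with Loxl4 at 6.58 and 13.0 CPM, Loxl2 at 4.87 and 6.82 CPM, Loxl3 at 5.14 and 1.82 CPM and Loxl1 at 3 and 37 UMIs. P4ha3, a prolyl hydroxylase subunit under the 10 CPM minimum, had 6.28 CPM in A and 0.436 CPM in B, while P4ha1 had 67.7 and 65.9 CPM. The genes of this paragraph were singled out after their values were seen. Low counts and counts of 0, those of Serpinh1 included, depend on the annotated 3′ end of a gene, which was not checked here, so they do not show that a gene was off.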
